A study of Mus musculus with 2 samples.

Results

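Mir139, Mir652, Mir191, Mir140, Mir324 and Mir185 are 6 of the 2202 annotated microRNA genes counted in heart tissue of young mice. They were listed because they were abundant or differed between libraries, and because each lies within another gene and outside the large microRNA families. Their own-strand levels and their differences between libraries therefore chose them and are given here as a description, without a test. All 6 matched 1 annotated gene of that name each, were detected (10 or more reads in each library) and averaged 100 reads or more over both.

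Both libraries were made from heart tissue of female B6CASTF1/J mice, an F1 hybrid strain, aged 14 days, with no further allele or agent named, and held RNA of under 30 bases. They form 1 group of 2 biological replicates, and the data hold no contrast of conditions. In the sample notes replicate 1 is described with 3 females and replicate 2 with 1, so replicate 1 may or may not be a pool. The notes also put months after the age, where the age field, used here, has days. Own-strand reads of microRNA genes (reads in the direction of the gene) numbered 5237062 in replicate 1 and 3026501 in replicate 2. Levels are counts scaled to 1000000 of these reads (CPM), and intervals are exact 95% Clopper-Pearson intervals, which cover counting error only, since no molecular identifiers tell copies of a molecule apart. The heart label was set beside marker lists, which were chosen with earlier results of these data known and so give no independent check. The myosin-hosted Mir208a stood at 1356 and 641 CPM and Mir499 at 3482 and 2486 CPM. Of the 6 genes of the neuronal list, 5 (the 3 Mir124a genes, Mir9-1 and Mir9-2) had 0 reads. The other detected cardiomyocyte genes were Mir208b (329 and 288 CPM), Mir1a-2 (27.2 ± 8.75 CPM over both) and Mir133a-1 (3.06 and 3.96 CPM), and Mir1a-1 and Mir133a-2 had under 10 reads in each library. All 6 neuronal genes and the 4 Mir1a and Mir133a genes share 20 bases with another hairpin, so their reads may have gone uncounted.

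A microRNA is cut from a hairpin in a longer transcript and guides the Argonaute silencing complex to messenger RNAs, which it recognises mainly through the seed, bases 2 to 8 of the mature strand. Many microRNA hairpins lie in introns of host genes and can be processed from the host transcript, although some have promoters of their own. Host transcripts were not measured in these libraries, which hold small RNA only. In bulk tissue, fewer cells of a type and less RNA per cell cannot be told apart.

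The 10 mature strands listed for these genes had 10 different seeds, so no pair of them is grouped by seed. Sequences are from RefSeq on GRCm38.p6, written 5′ to 3′ with the seed in capitals, and all 6 genes matched. The deposited counts are per gene and do not say which arm a read came from, so both arms are shown where listed. The other strands, miR-140-5p and miR-185-5p, had no sequence listed, so their seeds were not compared.
miR-139-5p: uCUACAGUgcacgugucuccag
miR-139-3p: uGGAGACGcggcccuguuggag
miR-652-5p: cAACCCUAggagggggugccauuc
miR-652-3p: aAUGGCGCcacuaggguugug
miR-191-5p: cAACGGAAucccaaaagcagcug
miR-191-3p: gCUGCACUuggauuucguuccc
miR-140-3p: uACCACAGgguagaaccacgg
miR-324-5p: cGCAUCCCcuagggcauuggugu
miR-324-3p: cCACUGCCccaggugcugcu
miR-185-3p: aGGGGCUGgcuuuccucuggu
The strands were 20 bases (miR-324-3p) to 24 bases (miR-652-5p) long, with a GC content from 52.2% (miR-191-5p) to 70.0% (miR-324-3p).

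Of these 10 seeds, 8 were found in no other of the 1679 mature mouse sequences of the table. The seed ACCACAG of miR-140-3p also occurs in miR-497b, and the seed GGGGCUG of miR-185-3p also occurs in miR-7048-5p. Both partners are shown because they share a seed with 1 of these 10 strands.
miR-497b: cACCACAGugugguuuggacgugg
miR-7048-5p: cGGGGCUGagaggugaggaagc
Neither Mir497b nor Mir7048 had a read in either library, and the upper limit set by 0 reads was 0.573 CPM for replicate 1 and 0.991 CPM for replicate 2. No hairpin of the 6 shared 20 bases with an annotated microRNA hairpin at another place, against 52 of the 226 genes that averaged 100 reads or more. Overlapping genes were left out of this comparison, among them Gm24083, which covers Mir191 on the opposite strand. With overlapping genes left out, the longest stretch shared on either strand was 15 bases, between Mir185 and Mir8118. The shortest of these longest stretches was 11 bases, for Mir139 and Mir140. Hairpin length ran from 65 bases (Mir185) to 98 bases (Mir652), and hairpin GC content from 50.0% (Mir652) to 58.8% (Mir139). The medians over the 226 genes were 84 bases and 50.2%.

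The hosts differed in kind, and 5 of the 6 genes lay on the strand of a protein-coding gene in the annotation (GENCODE M21 on mm10). Mir139 (chromosome 7, 101475376 to 101475443, plus strand) lay in intron 2 of Pde2a, a phosphodiesterase gene that breaks down cyclic nucleotides, 5927 bases before the next exon. It also lay in an intron of Gm45837, an overlapping protein-coding gene model. Mir652 (chromosome X, 142739000 to 142739097, plus strand) lay in intron 2 of the transmembrane protein gene Tmem164, an intron of 69090 bases. Mir185 (chromosome 16, 18327401 to 18327465, minus strand) lay in intron 1 of Tango2, 16429 bases after the upstream exon. None of these 3 overlapped an annotated exon of its host.

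Mir140 and Mir324 touched annotated exons of their hosts. Mir140 (chromosome 8, 107551244 to 107551313, plus strand) lay in intron 16 of Wwp2, which encodes a HECT-type ubiquitin ligase, and overlapped an exon in 1 of the 11 Wwp2 transcripts, a retained-intron model. Mir324 (chromosome 11, 70012043 to 70012131, plus strand) lay wholly within the 3′ UTR of 2 of the 7 transcripts of Dvl2, a Dishevelled gene of Wnt signalling. On the opposite strand, Mir324 faced intron 11 of Acadvl, the gene of the very-long-chain acyl-CoA dehydrogenase of mitochondrial fatty acid oxidation.

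Mir191 differed from the others in its host and in its neighbours. In this annotation it lay in no protein-coding gene but in the lincRNA 4833445I07Rik (chromosome 9, 108567533 to 108569174, plus strand), in an exon of 1 of its 2 transcripts and in the intron of the other. Mir191 (chromosome 9, 108568319 to 108568392, plus strand) was also no singleton, since Mir425 followed on the same strand after 384 bases and the annotated microRNA gene Gm24083 covered Mir191 on the minus strand. The other 5 had no annotated microRNA gene within 10 kb or in the same host.

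Levels ran over a wide range, and the 6 genes together took 6.55% of counted reads in replicate 1 and 5.32% in replicate 2, or 5.94% ± 0.874 (SD, n = 2). Mir139, which has been studied as a growth-restraining microRNA in tumours, had 183755 and 70357 reads in replicates 1 and 2, or 35087 CPM (interval 34930 to 35245) and 23247 CPM (23078 to 23417). Its mean of 29167 ± 8372 CPM (SD, n = 2) placed it at rank 10, with rank 8 in replicate 1 and rank 11 in replicate 2. Mir652, whose inhibition has been studied in mouse models of cardiac hypertrophy, had 60501 and 45641 reads, or 11552 and 15080 CPM, with a mean of 13316 ± 2495 CPM (SD, n = 2) and rank 15. Mir139 was thus higher in replicate 1 and Mir652 in replicate 2, and the ratio of Mir139 to Mir652 was 3.04 in replicate 1 and 1.54 in replicate 2.

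Mir191, often used as a reference small RNA in PCR assays, had 56263 and 28628 reads, or 10743 CPM (interval 10655 to 10832) and 9459 CPM (9350 to 9569), which was the closest agreement of the 6 relative to its level. Its mean was 10101 ± 908 CPM (SD, n = 2), an SD of 8.99% of the mean, and its rank was 17 or 18 in each library. Mir324, known as a repressor of Hedgehog pathway genes, had 9994 and 6978 reads, or 1908 and 2306 CPM, with a mean of 2107 ± 281 CPM (SD, n = 2) and rank 46. The SD was 13.3% of the mean for Mir324, 18.7% for Mir652 and 28.7% for Mir139. These 4 genes therefore kept their place in the library to within a few ranks.

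Mir140 and Mir185 did not. Mir140, which is best known from cartilage, had 31931 reads in replicate 1 and 4080 in replicate 2, or 6097 CPM (interval 6031 to 6164) and 1348 CPM (1307 to 1390). Its mean of 3723 ± 3358 CPM (SD, n = 2) had an SD of 90.2% of the mean, and it stood at rank 26 in replicate 1 and rank 58 in replicate 2. Mir185, which lies in the mouse counterpart of the human DiGeorge syndrome region, had 794 reads in replicate 1 and 5275 in replicate 2, or 152 CPM (interval 141 to 163) and 1743 CPM (1696 to 1791). Its mean of 947 ± 1125 CPM (SD, n = 2) had an SD of 119% of the mean, and it moved from rank 140 to rank 48. Means of Mir140 and Mir185 describe neither library.

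**Figure D1:**
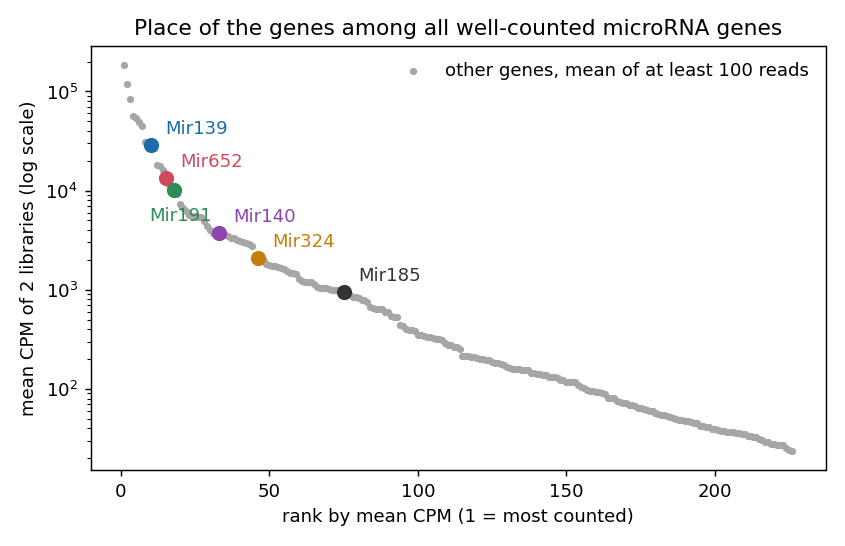
Mean CPM over both libraries (log scale) against rank for the 226 microRNA genes that averaged 100 reads or more, with the 6 genes in colour. Mir139, Mir652 and Mir191 stand at ranks 10, 15 and 18, and Mir140, Mir324 and Mir185 at 33, 46 and 75.

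**Figure D2:**
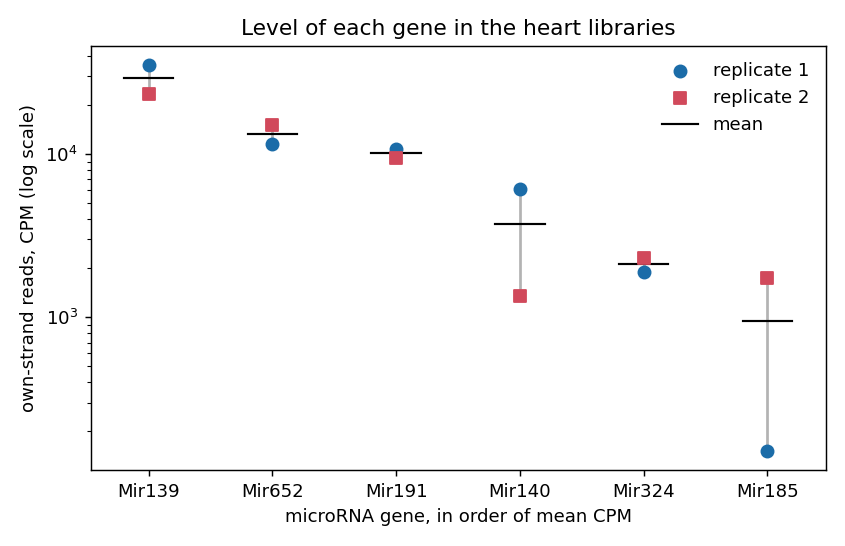
Own-strand CPM (log scale) of the 6 genes in replicate 1 (circles) and replicate 2 (squares), with the mean as a black line. The libraries lie close together for Mir191 and far apart for Mir140 (6097 and 1348 CPM) and Mir185 (152 and 1743 CPM).

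The order of the 6 genes held in both libraries except around Mir140. Of 15 pairs, 13 had the same order in both libraries, and the CPM ranges of the libraries overlapped for 2 pairs, Mir140 with Mir324 and Mir140 with Mir185. Mir140 had 3.20 reads for each read of Mir324 in replicate 1 and 0.585 in replicate 2. Mir324 had 12.6 reads for each read of Mir185 in replicate 1 and 1.32 in replicate 2. Dividing CPM by hairpin length gave another scale, on which Mir139 led with 516 and 342 CPM per base in replicates 1 and 2. The sequenced RNA is shorter than the hairpins, so counts need not grow with hairpin length. This scale is therefore no better measure for comparing genes than CPM. On that scale Mir652 (118 and 154) and Mir191 (145 and 128) changed places between the libraries, and 11 of 15 pairs kept their order.

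The genes next to each of the 6 in the order of mean CPM show its place only. The range of the libraries overlapped that of the gene above and of the gene below in every case. This is largely built in, since neighbours were picked by mean CPM in the same libraries. Mir139 lay between the smooth muscle microRNA gene Mir143 (31063 ± 2742 CPM) and Mir99a (27029 ± 716 CPM). Mir652 lay between Mir26b (16185 ± 4916 CPM) and Mir99b (11540 ± 7628 CPM), and Mir191 between Mirlet7e (11459 ± 1948 CPM) and Mir322 (9264 ± 2466 CPM), with an SD over 2 libraries in each case. Mir140 lay between Mir130a and Mir30e (3767 and 3646 CPM), Mir324 between Mir98 and Mir155 (2170 and 2105 CPM), and Mir185 between Mir484 and Mir497 (981 and 889 CPM).

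The gene most alike in both libraries at once was found by the distance in log2(CPM + 1) over the 2 libraries. For Mir140 it was Mir21a, at a distance of 0.34, with 4926 CPM in replicate 1 and 1225 CPM in replicate 2, both below Mir140. For Mir185 it was the erythroid-cluster gene Mir144, at a distance of 1.68, with 103 and 579 CPM. The distance was 0.18 from Mir324 to Mir98, 0.27 from Mir191 to Mirlet7e, 0.40 from Mir139 to Mir99a and 0.60 from Mir652 to Mirlet7e. Mir185 thus had the most distant nearest gene of the 6, and 2 libraries are too few to read a shared pattern from these distances.

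Differences between the libraries are given as log2 of replicate 1 over replicate 2 after TMM scaling, which moved all values by -0.13 relative to total counts. Mir140 differed by 2.04 (counting interval 2.00 to 2.09), or 4.12-fold, higher in replicate 1. Mir185 differed by -3.66 (-3.77 to -3.55), or 12.6-fold, lower in replicate 1. Among the 226 genes that averaged 100 reads or more, the difference of Mir185 was the third in size and that of Mir140 the eighth. These 2 of the 6 genes differed by more than 2-fold, beside 18.1% of the 226 genes. Of the 226, 12.4% were higher in replicate 1 by more than 2-fold, as Mir140 was, and 5.75% were lower, as Mir185 was. The genes were chosen in part for these differences, so nothing is read from these counts.

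The other 4 genes differed by less than 2-fold. Mir139 differed by 0.46 (counting interval 0.45 to 0.47), Mir652 by -0.52 (-0.54 to -0.50), Mir324 by -0.41 (-0.45 to -0.36) and Mir191 by 0.05 (0.03 to 0.07) on the log2 scale. In fold terms these were 1.38 for Mir139, 1.43 for Mir652, 1.33 for Mir324 and 1.03 for Mir191, against a median of 1.32 over the 226 genes. Mir324 lay almost at that median, and Mir191 lay well under it, at place 217 of 226 in size. Of all 6, Mir139, Mir191 and Mir140 were higher in replicate 1 and Mir652, Mir324 and Mir185 were lower.

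The members were set beside other microRNA genes of the same arrangement, chosen by annotation alone. A total of 55 of the 226 genes lay within a protein-coding gene on its strand, shared no 20 bases with another hairpin and had no other microRNA gene within 10 kb or in the host; 5 of the 6 were among them and Mir191 was not. The median size of their difference between libraries was 1.32-fold, as over all 226 genes, and 1.28-fold over the 50 without the 5. More than 2-fold was reached by 9 of the 55 (16.4%) and, without the 5 chosen genes, by 7 of 50 (14.0%), beside 18.1% of the 226. The 7 were Mir22 (log2 2.08), Mir21a (1.87), Mir148b (1.45), Mir455 (1.06), Mir331 (-1.24), Mir301 (-1.27) and Mir505 (-1.91), named after their values were seen. Mean levels of the 55 reached from 23.7 to 83496 CPM with a median of 268 CPM. All 5 had a mean above that median, but they were chosen in part for their level, so nothing is read from this. In replicate 1 alone Mir185 had 152 CPM.

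Some markers of other cell types differed between the libraries in the direction of Mir185 or of Mir140, and others went against it. With 2 libraries a shared direction alone says little, and whether cell types play any part was not tested. With Mir185, lower in replicate 1, 2 of the 4 detected erythroid genes were also lower, Mir451a (234 and 6393 CPM, log2 -4.91) and Mir144 (103 and 579 CPM, log2 -2.62). The other erythroid genes were higher, Mir486 (658 and 410 CPM) and Mir3107 (21.6 and 11.9 CPM). The erythroid list summed to 1016 and 7394 CPM in replicates 1 and 2. None of the 4 annotated erythroid genes was at 0. The skeletal muscle gene Mir206 (7.83 and 20.5 CPM, log2 -1.52) was also lower in replicate 1. Mir133b of that list, which shares 20 bases with another hairpin, had 6 and 5 reads, or 1.15 and 1.65 CPM. The liver gene Mir122 (55.9 and 70.4 CPM, log2 -0.47) was lower in replicate 1 too.

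With Mir140, higher in replicate 1, the cartilage list of 2 genes summed to 1801 and 787 CPM, nearly all of it Mir455 (1799 and 785 CPM), which lies in the collagen gene Col27a1. Mir675, the other gene of that list, had 10 and 6 reads, or 1.91 and 1.98 CPM, and so was not higher in replicate 1. Of 5 detected fibroblast genes, 4 were higher in replicate 1, and the list summed to 8008 and 3358 CPM, led by Mir21a (log2 1.87), with Mir199a-1 at 0. Mir199a-1, Mir199a-2 and Mir29b-1 share 20 bases with another hairpin, so their reads may have gone uncounted. All 6 detected epithelial genes were higher in replicate 1, from Mir200c (log2 0.22) to Mir200b (2.88), and the list summed to 758 and 395 CPM. The leukocyte list summed to 3855 and 4154 CPM, with 4 of 5 genes higher in replicate 1.

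Each detected cardiomyocyte, endothelial and smooth muscle marker differed by less than 2-fold after TMM scaling. Mir208a lay just inside that limit (log2 0.95), and its CPM of 1356 and 641, without TMM scaling, lay past it. The cardiomyocyte list summed to 5192 and 3454 CPM in replicates 1 and 2, with 3 of 5 detected genes higher in replicate 1. The endothelial Mir126a had 42911 and 63991 CPM (log2 -0.71), and the smooth muscle list summed to 30333 and 33879 CPM. No cell type can be assigned to the 6 genes from these libraries.

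**Figure D3:**
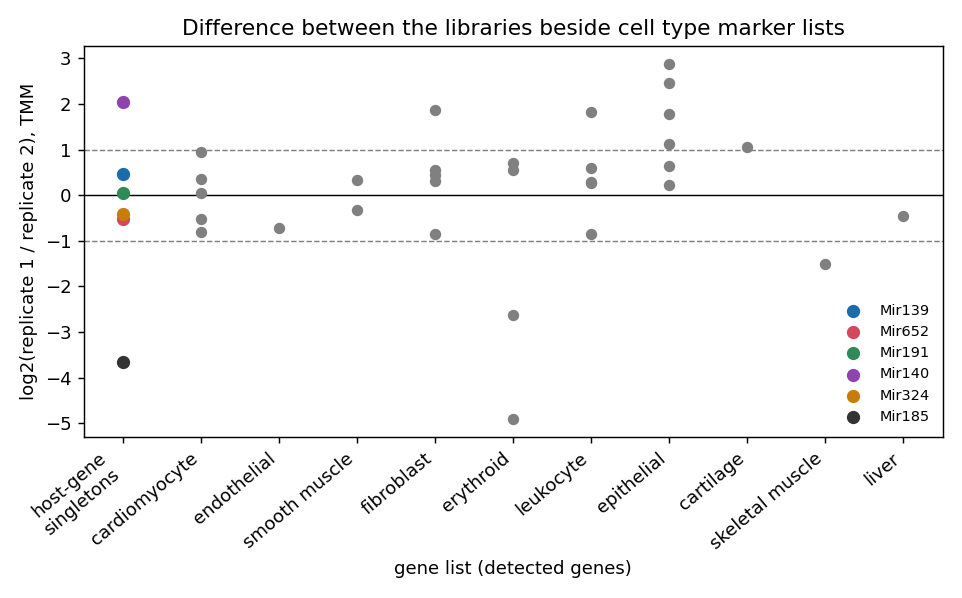
Log2 of replicate 1 over replicate 2 after TMM scaling for the 6 genes (colours) and for the detected genes of each marker list (grey points), with dashed lines at a 2-fold difference. Mir185 (-3.66) lies between the erythroid genes Mir144 (-2.62) and Mir451a (-4.91), while the erythroid genes Mir486 (0.55) and Mir3107 (0.71) lie on the other side. Mir140 (2.04) lies just above the fibroblast gene Mir21a (1.87). The other detected fibroblast genes lie lower, from -0.86 (Mir199a-2) to 0.55 (Mir29b-1), and these 2 share 20 bases with another hairpin.

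Reads on the opposite strand were a measure that did not choose the genes. Mir139, Mir652, Mir191, Mir140 and Mir185 had 0 opposite-strand reads in both libraries. For Mir139 this allows an opposite-strand share of up to 0.00163% in replicate 1 and 0.00426% in replicate 2, and for Mir185, with 794 reads in replicate 1, up to 0.378%. Mir324, which faces an intron of Acadvl, had 1 opposite-strand read in replicate 1 (0.0100%, interval 0.000253 to 0.0557) and 4 in replicate 2 (0.0573%, 0.0156 to 0.147), and these intervals overlap. Among the 226 genes, 209 had no opposite-strand read in replicate 1 and 218 in replicate 2, and the highest shares were 11.7% for Mir122 in replicate 1 and 30.5% for Mir24-1 in replicate 2. Nearly all reads of the 6 genes thus lay on the annotated strand, as for most well-counted genes.

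For Mir191 the strand decided whether it was seen at all. Without regard to strand it had 0 reads in both libraries, since a read there falls in both Mir191 and Gm24083, and the unstranded column sets reads of overlapping genes aside as ambiguous. Gm24083 had 0 own-strand reads, and its opposite-strand counts of 56263 and 28628 were exactly the own-strand counts of Mir191. These made up 4.15% of ambiguous reads in replicate 1 and 3.39% in replicate 2. Of the 226 genes, 18 had 0 unstranded reads in each library, while the other 5 members lost no read.

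Mir425, the partner of Mir191 in 4833445I07Rik, was counted far less often. It had 3310 and 1986 reads, or 632 and 656 CPM, with a mean of 644 ± 17.1 CPM (SD, n = 2). Its mature strands are shown to compare them with miR-191-5p and miR-191-3p.
miR-425-5p: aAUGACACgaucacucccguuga
miR-425-3p: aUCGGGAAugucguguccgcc
None of these seeds equals a seed of Mir191, and the seed AUGACAC also occurs in miR-489-3p, whose gene Mir489 had 0 reads. Mir191 had 17.0 reads for each read of Mir425 in replicate 1 (counting interval 16.4 to 17.6) and 14.4 in replicate 2 (13.8 to 15.1), a mean ratio of 15.7 ± 1.83 (SD, n = 2). The log2 difference between the libraries was -0.19 for Mir425 (-0.27 to -0.11) and 0.05 for Mir191, so both genes of the locus lay close to equality.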

How the data were processed

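Small RNA of 2 mouse heart libraries had been sequenced. The deposited tables hold raw whole-number read counts per gene, which the authors made against mm10 with GENCODE M21, per the deposited readme. For the aligner, trimming and counter the entry is "not given in the sources used here". Columns hold unstranded, own-strand and opposite-strand counts, as read from their values. Own-strand counts were used unless strand is named. The 4 summary lines stayed out of library sizes: in replicates 1 and 2 unmapped reads made up 13.4% and 13.3%, reads with several places, counted for no gene, 41.1% and 39.9%, and reads outside microRNA genes 4.33% and 4.30%.

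CPM used all gene rows. TMM scaling (edgeR 4.0.16, R 4.3.3) used genes with at least 10 reads in sum, and 0.5 reads were added before taking log2 differences. Counting intervals of differences and ratios come from exact binomial intervals. For 0 reads the upper limit was set at 3 reads. Hosts and positions come from GENCODE M21, and intron numbers from the first principal transcript. Tables and plots were made with scipy 1.17.1, numpy 2.4.6, matplotlib 3.10.9 and pandas 2.3.3 in Python 3.11.15.

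The members, marker lists and comparisons were chosen with earlier results of these data known. Named were the 6 genes, microRNA genes in the same host or within 10 kb, the genes directly above and below in mean CPM, the nearest gene in both libraries, marker genes and genes sharing a seed. With 1 group of 2 libraries there was no test. Alternatives were unstranded reads, other denominators, each library alone, total counts, DESeq2 1.42.0 size factors, a pseudocount of 10, no filter before TMM and a lower read minimum.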

Additional observations from a re-analysis of the deposited data

How the results depend on the processing

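The side of the 2-fold limit and the direction of all 6 genes held under every scaling, pseudocount and filter tried, and with unstranded reads for the 5 genes that then had reads. With total counts the log2 differences were 0.59 for Mir139, -0.38 for Mir652, 0.18 for Mir191, 2.18 for Mir140, -0.27 for Mir324 and -3.52 for Mir185. With TMM without a filter they were 0.59, -0.39, 0.18, 2.17, -0.28 and -3.53. With DESeq2 size factors, Mir139 stood at 0.50, Mir652 at -0.48 and Mir191 at 0.087, and with unstranded reads Mir139 at 0.48 and Mir652 at -0.50. With unstranded reads, whose total is smaller, the level was 39795 CPM for Mir139, 18253 for Mir652, 2888 for Mir324 and 0 for Mir191, the ratio of Mir191 to Mir425 was 0, and Mir652 and Mir324 took ranks 13 and 41. Counting reads outside microRNA genes in the total gave 9156 CPM for Mir191. Each library alone gave ranks 17 and 18 for Mir191 and 26 and 58 for Mir140. With at least 10 reads in both libraries, 71 of 335 genes differed by more than 2-fold, against 41 of 226, more genes being counted. No paired analysis was possible because there is only 1 group.

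Each SD is drawn from only 2 libraries, and counting intervals do not hold the spread between samples. Depth limits Mir185 in replicate 1 (794 reads) and the opposite-strand shares most.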
